A study of Rattus norvegicus with 6 samples.

Results

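MicroRNAs (miRNAs) are short RNAs that repress messenger RNAs carrying a match to their seed, bases 2 to 8 from the 5′ end. The members described here are miR-203 and the miR-200 family, taken as every listed mature miRNA whose name begins with rno-miR-203a-, rno-miR-203b-, rno-miR-200a-, rno-miR-200b-, rno-miR-200c- or rno-miR-141-, together with rno-miR-429. This gave 10 of the 562 miRNAs listed, of which 2 belong to miR-203 and 8 to the miR-200 family. The question was whether miR-203a-3p moved with the miR-200 family from one library to the next.

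The miRNAs came from the arcuate nucleus (ARC), a hypothalamic region at the base of the brain next to the stalk of the pituitary. Small RNA libraries were made on Day 14 after surgery from Sprague-Dawley rats, 8 to 10 weeks old and, per the general methods, male. In 3 libraries, labelled CCI-ION, the infraorbital nerve, a sensory branch of the trigeminal nerve, had been loosely ligated on the left side, and in 3 sham libraries it had been exposed without ligature. The ARC was cut from a coronal brain slice, so the tissue holds every cell type within the cut. The miRNA levels are described as coming from 6 rats per group, more than the 3 libraries of each, and how the rats were divided over the libraries is not given in the sources used here. The p-values below measure only the spread between these libraries.

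The miR-200 family is a classic mark of epithelial cells, where it represses ZEB1 and ZEB2, the repressors of E-cadherin, and so helps to hold the epithelial state. It is also abundant in the pituitary and in the olfactory epithelium. miR-203 is best known from stratified epithelium of the skin, where it restrains p63 and so the proliferation of stem-like cells.

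Mature sequences were found in RefSeq for 7 of the 10 members (assembly GRCr8) and are shown because the members fall into groups by their seed, which is in capitals. The miR-203 pair reads as follows.
rno-miR-203a-3p: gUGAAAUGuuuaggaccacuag
rno-miR-203b-3p: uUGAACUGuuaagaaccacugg
The 3p arms found for the miR-200 family are the next pair.
rno-miR-200c-3p: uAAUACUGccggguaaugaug
rno-miR-141-3p: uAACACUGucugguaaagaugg
The 5p arms found are the following.
rno-miR-200a-5p: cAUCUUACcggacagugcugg
rno-miR-200b-5p: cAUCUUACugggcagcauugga
rno-miR-141-5p: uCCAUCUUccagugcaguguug

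Counted from 1 at the 5′ end, miR-203b-3p differs from miR-203a-3p in the seed by A6C, and 17 of 22 bases are identical. miR-141-3p differs from miR-200c-3p in the seed by U4C, with 17 of 21 bases identical. The 5p arms of miR-200a and miR-200b share their seed, with 16 of 21 bases identical. The seed of miR-203a-3p differs from that of miR-200c-3p at 4 positions. By textbook grouping, rno-miR-200b-3p, miR-200c-3p and rno-miR-429 share one seed, and rno-miR-200a-3p and miR-141-3p share the other.

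The members lie at 3 places in GRCr8. Mature miR-203a-3p is at chr6:137020756-137020777 on the plus strand, within the hairpin gene Mir203. Mature miR-203b-3p is at chr6:137020716-137020737 on the minus strand, within Mir3545, whose hairpin covers all 97 bases of Mir203 on the opposite strand. The hairpins of Mir200b, Mir200a and Mir429 lie within 1908 bases of chromosome 5, with miR-200b-5p at chr5:171931548-171931569 and miR-200a-5p at chr5:171930770-171930790, both on the minus strand. Those of Mir200c and Mir141 lie within 509 bases of chromosome 4, with miR-200c-3p at chr4:159209969-159209989, miR-141-5p at chr4:159209584-159209605 and miR-141-3p at chr4:159209540-159209561, all on the minus strand.

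The libraries held between 8628309 and 14313839 miRNA reads, with 24 to 29 of the 562 miRNAs at 0 in the sham libraries and 31 to 48 in the CCI-ION libraries. Values are normalized counts, the reads of a miRNA divided by a size factor of its library (0.821 to 1.20). The smallest value above 0 in each library was taken as 5 reads, and the read numbers and size factors rest on this. CCI-ION replicate 2 was the shallowest library and had the most miRNAs at 0.

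miR-203a-3p was higher in all 3 CCI-ION libraries than in any sham library. Its normalized counts were 161, 168 and 171 in sham replicates 1 to 3 and 534, 332 and 539 in CCI-ION replicates 1 to 3. The sham libraries lay close together, and CCI-ION replicate 2 stood below the other two CCI-ION libraries, with a 95% Wilson interval of 295 to 374 that does not reach those of replicate 1 (492 to 580) and replicate 3 (494 to 589). These intervals cover counting error only. The mean went from 167 ± 5.09 (SD, n = 3) to 469 ± 118 (SD, n = 3), a ratio of 2.81. On the log2(normalized count + 1) scale it rose by 1.45 (SE 0.22, 95% interval 0.91 to 1.99), with a limma adjusted p of 0.0307. The authors chose this miRNA partly for its rise in this same sequencing, so the p is not independent of that choice.

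The call of miR-203a-3p depended on single libraries although its direction did not. The adjusted p was 0.0881 without sham replicate 1, 0.114 without sham replicate 2, 0.0878 without sham replicate 3, 0.0509 without CCI-ION replicate 1 and 0.0839 without CCI-ION replicate 3. It was 0.00735 without CCI-ION replicate 2, and the log2 fold change ranged from 1.33 to 1.68 over these 6 fits. At the threshold of 0.05, 38 of 555 miRNAs were called, which is 6.85% (19 higher and 19 lower, with 183 at an unadjusted p under 0.05). miR-203a-3p was the 1 member among them, of 10 tested, and 4 members had an unadjusted p under 0.05.

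miR-203b-3p, the product of the opposite strand, was near the detection limit. Every sham library and CCI-ION replicate 2 listed it at 0, and it stood at 4.65 in CCI-ION replicate 1 and at 8.61 in CCI-ION replicate 3, which were worth 5 and 8 reads. Its presence in CCI-ION replicates 1 and 3, those with the most miR-203a-3p, rests on these few reads, and its counting error was not worked out. Whether a listed 0 stands for no reads or for fewer than 5 is not known. No fold change is given (limma adjusted p = 0.174, and 0.0117 without CCI-ION replicate 2).

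The miR-200b, miR-200a and miR-429 locus on chromosome 5 gave the most abundant members. miR-200b-3p had normalized counts of 5770, 3558 and 3677 in the sham libraries and 3939, 12028 and 10078 in the CCI-ION libraries. CCI-ION replicates 2 and 3 stood far above the rest, and CCI-ION replicate 1 lay within the sham range. The mean was 4335 ± 1244 (SD, n = 3) in sham and 8682 ± 4221 (SD, n = 3) in CCI-ION, and the log2 fold change of 0.89 (SE 0.47, 95% interval −0.29 to 2.06) did not pass (limma adjusted p = 0.231). It was 1.38 without CCI-ION replicate 1 and 0.58 without CCI-ION replicate 2.

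miR-200a-3p, which carries the other seed of the family, was divided in the same way among the CCI-ION libraries. It stood at 2169, 1460 and 1626 in sham and at 2005, 4034 and 4463 in CCI-ION. CCI-ION replicate 1 was again inside the sham range, and replicates 2 and 3 were above it. The log2 fold change was 0.94 (SE 0.35) and did not pass (limma adjusted p = 0.141, and 0.0495 without CCI-ION replicate 1).

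miR-429, from the third hairpin of this locus, was about an order of magnitude less abundant than miR-200b-3p, and also scarcer than miR-200a-3p. Its values were 442, 278 and 354 in sham and 385, 666 and 783 in CCI-ION. The groups overlapped in CCI-ION replicate 1 alone, and the log2 fold change of 0.73 (SE 0.32) did not pass (limma adjusted p = 0.174).

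The 5p arms of this locus, the strands less often kept from each hairpin, were scarcer than the 3p arms. miR-200a-5p stood at 134, 104 and 101 in sham and at 178, 447 and 439 in CCI-ION. It was the other member whose groups did not overlap, although CCI-ION replicate 1 lay far nearer to the sham libraries than to the other two. Its log2 fold change of 1.54 (SE 0.40, 95% interval 0.55 to 2.52) was as large as that of miR-203a-3p but missed the threshold (limma adjusted p = 0.0779). It passed with a mean of at least 10 required (limma adjusted p = 0.0451), with at least 10 reads required in every library (0.0285), with an intensity trend in the fit (0.0252) and without CCI-ION replicate 1 (0.0127). Every CCI-ION library exceeded every sham library for 2 of the 10 members, and for 108 of all 555 miRNAs tested, or 19.5%.

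miR-200b-5p stood at 53.7, 35.8 and 41.3 in sham and at 33.5, 93.8 and 70.0 in CCI-ION. CCI-ION replicate 1 was the lowest of all 6 libraries. The log2 fold change was 0.48 (SE 0.40, limma adjusted p = 0.432), with 0.90 when CCI-ION replicate 1 was left out and 0.17 when CCI-ION replicate 2 was.

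The miR-200c and miR-141 locus on chromosome 4 showed the same division among the CCI-ION libraries. miR-200c-3p stood at 3482, 2316 and 2148 in sham and at 2240, 7048 and 4755 in CCI-ION. CCI-ION replicate 1 was second lowest of the 6 libraries. The log2 fold change was 0.71 (SE 0.46, limma adjusted p = 0.315), and leaving out CCI-ION replicate 1 gave 1.16 and CCI-ION replicate 2 gave 0.33.

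miR-141-3p was far scarcer than its neighbour miR-200c-3p and less regular. It stood at 89.1, 24.9 and 22.8 in sham and at 40.0, 43.8 and 96.9 in CCI-ION, so that 1 library of each group was high. The log2 fold change was 0.57 (SE 0.63, limma adjusted p = 0.551). It came to 1.19, 0.29 and 0.22 with sham replicate 1, 2 or 3 left out, and to 0.17 with CCI-ION replicate 3 left out. miR-141-5p was at the detection limit of 5 reads in each sham library and at 6, 11 and 16 reads in CCI-ION, or 5.71, 4.16 and 4.21 against 5.58, 13.4 and 17.2 normalized counts (limma adjusted p = 0.137, and 0.0340 without CCI-ION replicate 1).

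**Figure D1:**
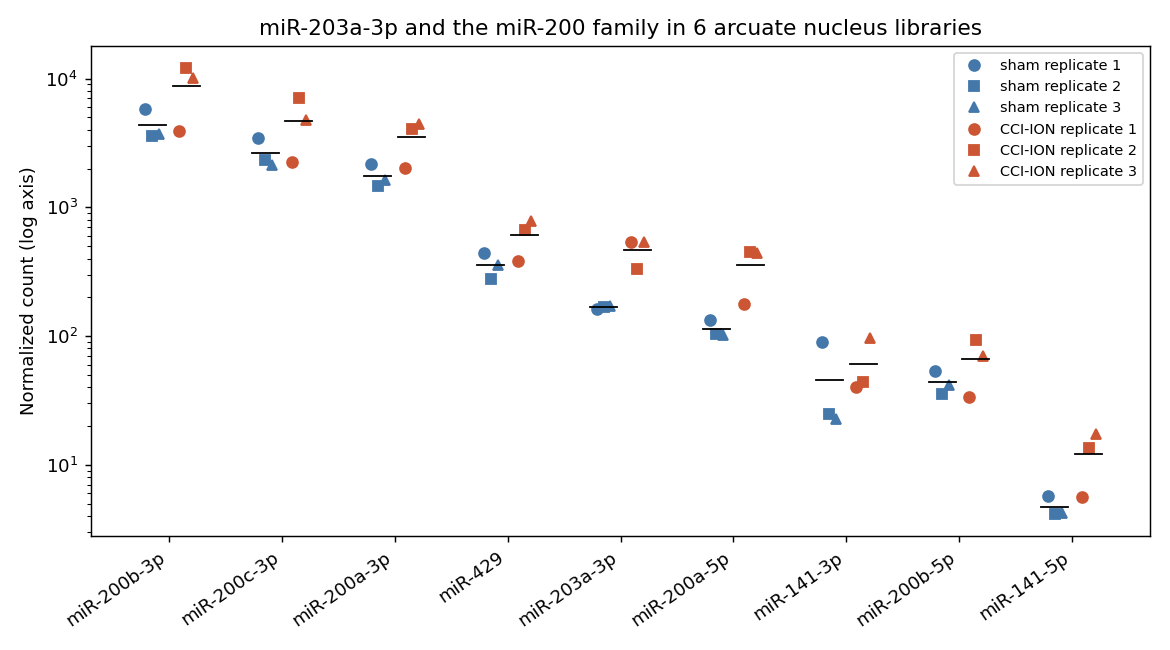
Normalized counts (log axis) of miR-203a-3p and the 8 miR-200 family miRNAs in each of the 3 sham (blue) and 3 CCI-ION (orange) libraries, in order of the sham mean, with black bars at the group means. CCI-ION replicate 1 (orange circles) lies within or near the sham range for the family, while all 3 CCI-ION libraries of miR-203a-3p (534, 332 and 539) lie above its sham libraries (161 to 171).

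In the order of sham levels, miR-200b-3p (3558 to 5770) came first and did not overlap with miR-200c-3p (2148 to 3482), which overlapped slightly with miR-200a-3p (1460 to 2169). miR-429 (278 to 442), miR-203a-3p (161 to 171) and miR-200a-5p (101 to 134) followed with no overlap. miR-141-3p (22.8 to 89.1) and miR-200b-5p (35.8 to 53.7) overlapped. These values count reads of mature miRNAs of nearly equal length, and ligation bias between sequences was not tested.

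Summed over its 8 miRNAs, the family differed more among the CCI-ION libraries than between the group means. The sum was 12147, 7781 and 7974 in sham and 8827, 24374 and 20702 in CCI-ION, or 9300 ± 2467 against 17968 ± 8126 (SD, n = 3 each), a ratio of 1.93. The means of all 8 members were higher in CCI-ION, with a median log2 fold change of 0.81 beside −0.01 over all 555 miRNAs, of which 48.8% had a positive log2 fold change. With upper-quartile factors in place of the authors' size factors, that median was −0.34, the members lay between 0.16 and 1.21 in place of 0.48 and 1.54, and the log2 ratio of the sums was 0.62 in place of 0.95. Both loci had similar ratios of the means, with a value of 2.00 for the sum over the chromosome 5 hairpins and 1.76 for the sum over the chromosome 4 hairpins. So did both 3p seeds, with 1.90 for miR-200b, miR-200c and miR-429 and 1.98 for miR-200a and miR-141. Most of the chromosome 4 sum is miR-200c-3p, and most of the sum for miR-200a and miR-141 is miR-200a-3p. miR-141-3p alone had a ratio of 1.32. In these bulk libraries a change in the number of cells of a type and a change in RNA per cell cannot be told apart.

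Set beside each other by library, miR-203a-3p and the family did not keep step. In CCI-ION replicate 1, miR-203a-3p was 3.20 times its sham mean while the family sum was 0.949 times its own. In CCI-ION replicate 2, the family was at its highest, 2.62 times, and miR-203a-3p at its lowest among the CCI-ION libraries, 1.99 times. Both were high in CCI-ION replicate 3, at 3.23 times for miR-203a-3p and 2.23 times for the family. In sham replicate 1, the family was at 1.31 times its sham mean and miR-203a-3p at 0.966 times. No correlation is given, because the 6 libraries form 2 groups of 3.

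**Figure D2:**
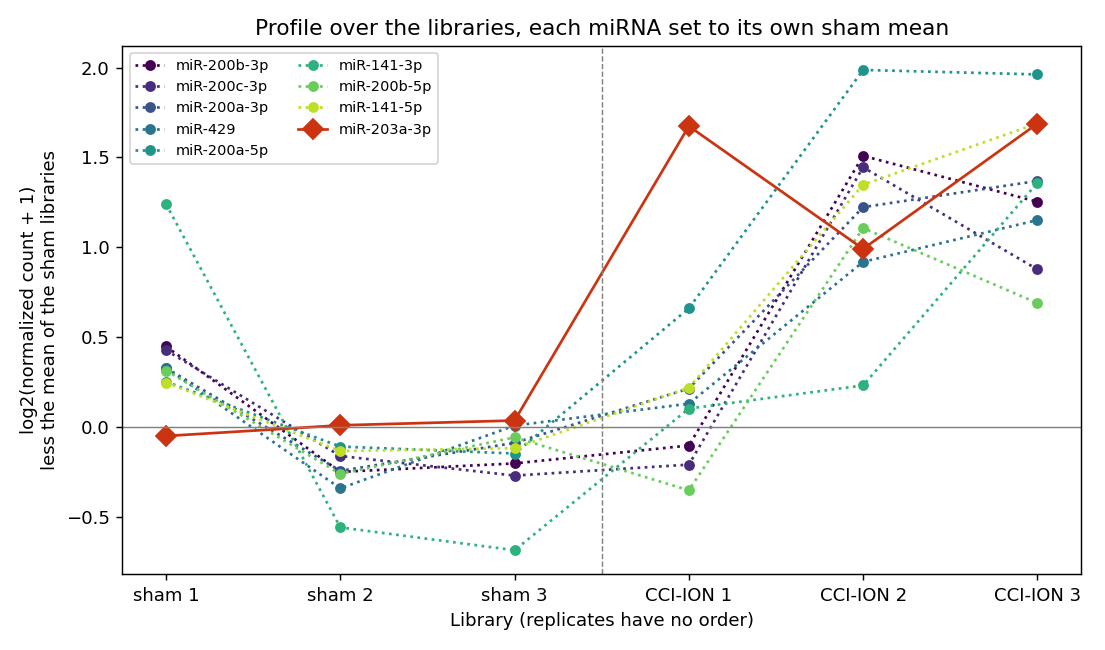
Values of log2(normalized count + 1) less the mean of the 3 sham libraries for miR-203a-3p (red diamonds) and the 8 miR-200 family miRNAs (dotted), over the 6 libraries, with lines that only join points of 1 miRNA. miR-203a-3p is high in CCI-ION replicate 1 (1.67), where miR-200b-3p is at −0.10, and at its lowest CCI-ION value in replicate 2 (0.99), where miR-200b-3p is at its highest (1.51).

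Ratios between members within a library show the same, free of any scaling between libraries. miR-200c-3p stood at 60.3, 65.1 and 58.4% of miR-200b-3p in sham and at 56.9, 58.6 and 47.2% in CCI-ION, a 1.38-fold range over the 6 libraries, although the pair comes from separate chromosomes and miR-200b-3p itself ranged 3.38-fold. miR-200a-3p to miR-200b-3p ranged 1.52-fold and miR-429 to miR-200b-3p 1.77-fold. miR-203a-3p stood at 2.79, 4.72 and 4.65% of miR-200b-3p in sham and at 13.6, 2.76 and 5.35% in CCI-ION, a 4.91-fold range. The highest of these ratios was that of CCI-ION replicate 1, and the lowest was that of CCI-ION replicate 2. The less abundant miR-141-3p ranged 4.12-fold against miR-200c-3p, so not every pair from 1 locus kept a steady ratio.

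The difference in change between the family and miR-203a-3p was also tested, by a limma fit on the log2 ratio of each miRNA to miR-203a-3p. Of 554 miRNAs, 450 were called as lower than miR-203a-3p in their change and 0 as higher, which is 81.2%. Of the 8 family members 0 passed, and 0 had an unadjusted p under 0.05. The intervals were wide, with −0.56 (95% interval −1.90 to 0.77) for miR-200b-3p, −0.75 (−2.10 to 0.60) for miR-200c-3p, −0.52 (−1.58 to 0.55) for miR-200a-3p, −0.72 (−1.71 to 0.27) for miR-429 and 0.085 (−1.09 to 1.26) for miR-200a-5p. They hold both an equal change and one smaller on the log2 scale by more than 1, so the group means leave the family and miR-203a-3p unseparated. All rows of this fit share the deviations of miR-203a-3p. As this reference was chosen partly for its rise in this sequencing, many calls as lower follow from that choice. With at least 10 reads required in every library, miR-200b-5p, miR-200c-3p, miR-141-3p and miR-429 passed as lower (limma adjusted p of 0.00568, 0.0335, 0.0122 and 0.0352). Without CCI-ION replicate 2, miR-200b-5p (limma adjusted p = 0.0168) and miR-200c-3p (0.0331) passed as lower. Single libraries moved these differences. Without CCI-ION replicate 1 they were 0.041 for miR-200b-3p, −0.18 for miR-200c-3p, −0.043 for miR-200a-3p, −0.30 for miR-429, −0.44 for miR-200b-5p, −0.54 for miR-141-3p and 0.63 for miR-200a-5p. Without CCI-ION replicate 2 they were −1.11 for miR-200b-3p, −1.35 for miR-200c-3p, −0.89 for miR-200a-3p and −1.51 for miR-200b-5p, and without sham replicate 1 they were −0.32 for miR-200b-3p, −0.33 for miR-200a-3p and −0.24 for miR-141-3p.

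**Figure D3:**
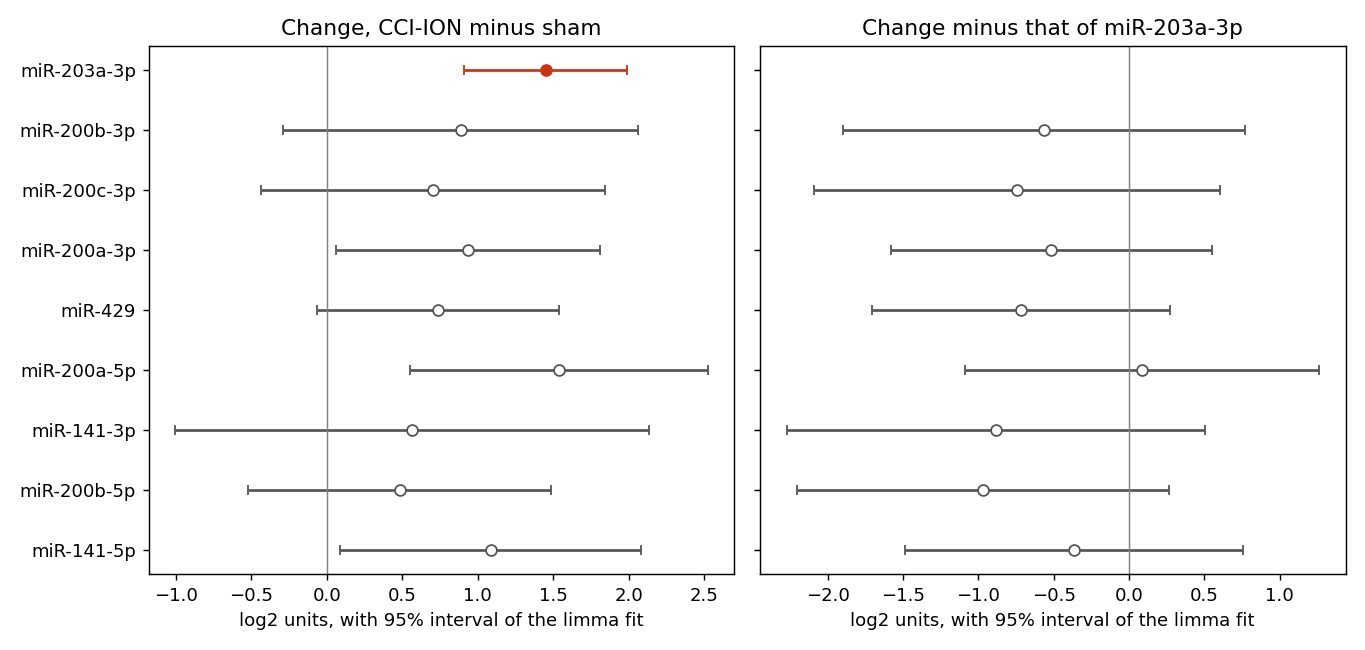
Log2 fold change, CCI-ION minus sham, from the limma fit (left), and the same less the change of miR-203a-3p (right), with 95% intervals for miR-203a-3p and the 8 miR-200 family miRNAs. The filled point, miR-203a-3p at 1.45, passed the threshold, and every interval on the right spans 0.

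The miRNAs with profiles nearest to that of miR-203a-3p were not of the family. Among 488 miRNAs with a mean of at least 10, the smallest root mean square distances between log2 profiles over the 6 libraries were those of miR-30d-5p (0.25), miR-148a-3p (0.29), miR-6325 (0.29), miR-152-5p (0.30) and miR-24-2-5p (0.32). miR-30d-5p stood at 1.18, 1.12 and 1.35 above its sham mean in CCI-ION replicates 1 to 3 on the log2 scale. This distance also takes in the size of the rise, so a small one need not mean the same order of libraries. miR-148a-3p had its lowest CCI-ION value in replicate 1 (1.12, against 1.39 and 1.74). The rest of the nearest named had theirs in replicate 2, as miR-203a-3p did. The nearest family members were miR-200a-5p at rank 43 (0.61), miR-200a-3p at rank 49 (0.65) and miR-429 at rank 62 (0.70). miR-200b-3p was at rank 107 (0.81), miR-200c-3p at rank 148 (0.89), miR-200b-5p at rank 174 (0.94) and miR-141-3p at rank 189 (0.97).

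A ranking around miR-200b-3p, chosen after its values were seen, gave other neighbours. The nearest were miR-183-5p (0.097), miR-200c-3p (0.17), miR-200a-3p (0.19), miR-96-5p (0.25) and miR-429 (0.28), with miR-182 at rank 6 (0.29) and miR-205 at rank 8 (0.36). miR-183, miR-96 and miR-182 come from 1 cluster known from sensory epithelia, and miR-205 is a miRNA of stratified epithelium that also represses ZEB1 and ZEB2. miR-183-5p stood at 3425, 2550 and 2384 in sham and at 2630, 8538 and 6335 in CCI-ION. It was high in CCI-ION replicates 2 and 3 and at the sham level in replicate 1, as the family was. miR-203a-3p was at rank 207 (0.81).

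**Figure D4:**
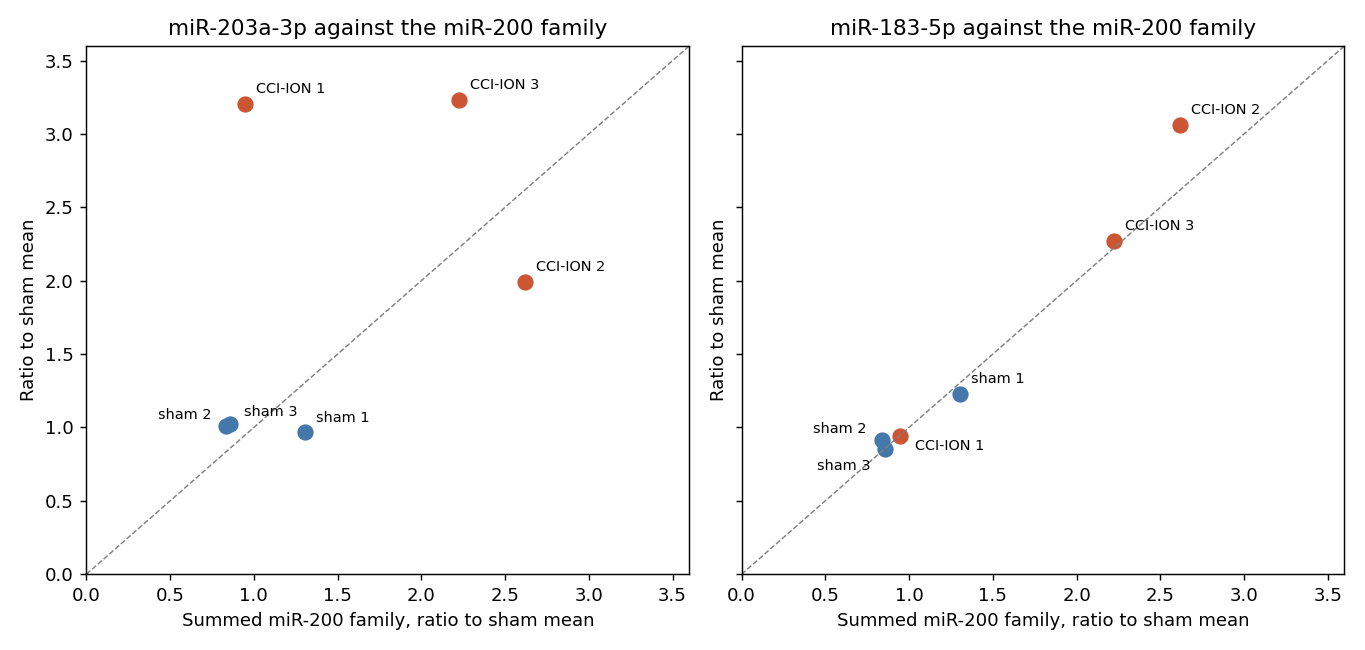
Ratio to the sham mean in each library, with the summed miR-200 family on the horizontal axis and miR-203a-3p (left) or miR-183-5p (right) on the vertical axis, for sham (blue) and CCI-ION (orange), with the dashed line at equal ratios. miR-203a-3p lies far above the line in CCI-ION replicate 1 (3.20 against 0.949) and below it in CCI-ION replicate 2 (1.99 against 2.62). miR-183-5p was drawn because its profile was the nearest to that of miR-200b-3p, a part of the sum. Its closeness to the line was therefore set by that choice, and it stands at 3.06 against 2.62 in CCI-ION replicate 2.

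Other miRNAs typical of pituitary and epithelium had no single direction. Of 11 listed outside the members, 10 were in the files, 0 rose and 0 fell, and their median log2 fold change was 0.51. miR-375-3p, abundant in endocrine cells, stood at 3613, 2903 and 3513 in sham and at 4451, 6633 and 4197 in CCI-ION (limma adjusted p = 0.137). miR-7a-5p, abundant in hypothalamus and pituitary, stood at 3105400, 1900550 and 2301270 in sham and was lower in all CCI-ION libraries, at 1351900, 830002 and 1389120 (limma adjusted p = 0.0828). miR-7b, of the same family, was also lower in each, at 208940 to 297979 in sham and 106238 to 158495 in CCI-ION (limma adjusted p = 0.0710). CCI-ION replicate 2, with the most miR-200, had the least of both. The sum over the list, most of it miR-7a-5p, was 2124230 to 3421300 in sham and 971205 to 1574870 in CCI-ION.

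The summed level of miRNAs typical of the vessel wall and fibroblasts was higher in every CCI-ION library than in any sham library. Such a separation was seen for 108 of all 555 single miRNAs tested, or 19.5%. Of 6 listed and found, 3 rose and 0 fell, beside 19 called higher among all 555, and their median log2 fold change was 0.98. The sum, most of it miR-143-3p and miR-126a-3p, was 85553 to 111320 in sham and 157347 to 176031 in CCI-ION. Those that rose were miR-143-3p (1.11, limma adjusted p = 0.0334) and miR-145-5p (0.85, 0.0450), both known from smooth muscle, and miR-199a-5p (1.66, 0.0190), known from fibroblasts. The other arm of the last, miR-199a-3p, did not pass (0.26, limma adjusted p = 0.460). For this arm CCI-ION replicate 1 (4497) lay below every sham library (4952 to 5567). Of 6 neuronal miRNAs 0 rose and 1 fell, miR-124-3p (−0.78, limma adjusted p = 0.0435), with a median of −0.61. Their sums, most of them miR-9a-5p, were 2041440 to 2229140 in sham and 1616060 to 2011890 in CCI-ION. miR-129-5p went the other way (0.45, limma adjusted p = 0.0762), with 200122 to 211908 in sham and 267822 to 312949 in CCI-ION. The high levels of miR-9a-5p, miR-128-3p, miR-129-5p and miR-124-3p fit the label of brain tissue. miR-138-5p (1313 to 2423) and miR-137-3p (74.3 to 585) were far scarcer over the 6 libraries. Of 6 miRNAs of the choroid plexus and ependyma, 5 were found, 0 rose and 0 fell, with a median of 0.23 and sums of 65993 to 90237 and 85001 to 108839. Of 4 erythrocyte miRNAs, 3 were found, 0 rose and 0 fell, with a median of −0.081. Their sums, most of them miR-486, were 2837 to 3798 and 2898 to 3660. miR-451-5p was nonetheless higher in every CCI-ION library (366 to 473) than in any sham library (137 to 242). Its log2 fold change of 1.07 did not pass (limma adjusted p = 0.0649). No marker that was found was at 0 in every library. The part of these cell types, and of the depth of CCI-ION replicate 2, in the values of the members was not tested.

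The share of 5p against 3p reads lay apart between the groups for Mir200a and Mir200b, in opposite directions. It did so for 44.3% of all hairpins with both arms measured. miR-200a-5p was at 6.16, 7.12 and 6.22% of miR-200a-3p in sham and at 8.86, 11.1 and 9.84% in CCI-ION. Every CCI-ION library was above every sham library, including CCI-ION replicate 1, in which the 5p arm was at 157% and the 3p arm at 114% of its sham mean. miR-200b-5p was at 0.931, 1.00 and 1.12% of miR-200b-3p in sham and at 0.850, 0.780 and 0.694% in CCI-ION, every CCI-ION library being lower. These ratios rest on 47, 43 and 49 reads of miR-200b-5p in sham and on 36, 77 and 65 in CCI-ION. Their counting error was not worked out. This comparison was chosen after the values were seen, and the groups were likewise apart for 70 of 158 hairpins with both arms measured, or 44.3% (31 higher and 39 lower), so that such a separation was common. For Mir141 the ratio was 6.41, 16.7 and 18.5% in sham and 14.0, 30.6 and 17.8% in CCI-ION, and the groups overlapped. An exact permutation test of 3 against 3 libraries cannot give a p under 0.1.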

How the data were processed

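Small RNA of the rat ARC was sequenced in 3 sham and 3 CCI-ION libraries, grouped by their labels. Per the submitters' processing notes, cutadapt 1.14, Bowtie 1.1.1 and the build rn6 were used, while the counting and the miRNA annotation are not given in the sources used here. The values deposited by the authors are a signal, read counts over a size factor. Reads were worked out from them by taking the smallest value above 0 in each library as 5 reads, which is an assumption. With the step this gave, 100% of values below 200 reads were whole multiples (tolerance 0.1). As values were normalized, the count tests planned were not run.

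limma 3.58.1 in R 4.3.3 was fitted to log2(normalized count + 1), two-sided, without covariates, with Benjamini-Hochberg adjustment over all miRNAs and a threshold of 0.05. A mean of at least 1 was required, which left out 7 of 562 miRNAs. The pseudocount understates changes of scarce miRNAs. A second fit used log2 ratios to miR-203a-3p. The first of these fits was tested on simulated counts with a set spread between libraries, and the fit on ratios was not. Replicate numbers were not treated as pairs: the deviations of same-numbered libraries correlated at −0.03, 0.19 and −0.01.

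Named were all members, the 5 nearest profiles to miR-203a-3p, and marker lists by counts with at most 4 values each. Members and lists were chosen with earlier results of these data known. Of the listed rows, 10 share all values with another, none of them members. Sequences and positions are from RefSeq (GRCr8) and not from the authors' build.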

Additional observations from a re-analysis of the deposited data

How the results depend on the processing

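Each miR-200 family member tested kept a positive log2 fold change in the 16 alternatives run, though miR-141-5p was not tested where a mean of at least 10 or 10 reads per library was required. The log2 ratio of the summed family, 0.95, stayed within the spread between libraries, and the 450 calls relative to miR-203a-3p stayed within 384 to 486. miR-203a-3p kept its direction in all and its call under every scaling, filter and pseudocount (log2 fold change 1.12 with upper-quartile factors to 1.65 with total counts), but not in 5 of the 6 fits that leave out 1 library (1.33 to 1.68).

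The count of 38 miRNAs past the threshold became 117 with upper-quartile factors (7.69% higher, beside 82.4% of 51 with total counts and 61.2% of 49 without the most abundant miRNA), 63 with a mean of at least 10, 96 with 10 or more reads in each library, 88 with an intensity trend, and 7 to 43 without 1 library (9, 11 and 7 with sham replicate 1, 2 or 3 left out, and 11 with CCI-ION replicate 3 left out). Over all miRNAs tested the median change, on the log2 scale, moved to −0.34 with upper-quartile factors and 0.17 with total counts. The count of 1 member past the threshold became 2 with a mean of at least 10, with an intensity trend, and with 10 or more reads per library, and 0 to 3 without 1 library (3 without CCI-ION replicate 1, namely miR-200a-3p, miR-200a-5p and miR-141-5p).

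The change less that of miR-203a-3p turned its sign in some fits without 1 library, for miR-200a-5p without sham replicate 3 (−0.0067), CCI-ION replicate 2 (−0.37) or CCI-ION replicate 3 (−0.0091), and for miR-200b-3p (0.041) and miR-141-5p (0.18) without CCI-ION replicate 1. Over the 6 such fits it ranged from −0.37 to 0.63 for miR-200a-5p, from −1.11 to 0.041 for miR-200b-3p and from −0.73 to 0.18 for miR-141-5p. The cause was not tested. Of 252 values of single members under the alternatives, 233 kept their direction and side of the threshold, 14 newly passed and 5 are the turns of sign above.

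With the replicate number as a block, 3 miRNAs passed (1 higher), of which 0 were members, and miR-203a-3p had 1.45 with a limma adjusted p of 0.0937. The libraries share only a number, since the deviations of same-numbered libraries correlated at −0.03, 0.19 and −0.01.

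DESeq2 and edgeR were not run, because the plan set limma for normalized values. The reads worked out from these values were not put into a count model. Depth limits miR-203b-3p and miR-141-5p, which lie at or near the smallest deposited value above 0, taken as 5 reads.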
